A study of Homo sapiens with 4 samples.

Results

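The 7 genes ZFP36L2, HLF, IRF2BP2, TM4SF1, FZD5, MIDN and SNTB1 lie at large clusters of SMRC1 peaks in HepG2 cells. They were chosen by SMRC1 peak density: when SMRC1 peaks close to each other were joined into regions, each gene stood at a region of 13 or more peaks. A locus was the gene plus 80 kb on either side. The 7 loci held 127 of the 29441 SMRC1 peaks, 64 of the 13643 NFIC peaks and 18 of the 3296 SATB1 peaks. The number, spacing and strength of SMRC1 peaks here are therefore descriptions and support nothing. The data are ChIP-seq peak lists from HepG2, an established human liver cancer line, whose chromatin was fixed with 1% formaldehyde for 10 min and precipitated with an antibody to SMRC1, SATB1 or NFIC, with no other treatment. An input library is also labelled and was not analysed here. Each antibody had 1 library, so no value has a replicate error, no difference was tested, and intervals cover counting error only. Gene expression was not measured, so the liver identity of the cells could not be checked against marker genes.

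SMRC1 stands for SMARCC1, also known as BAF155, a scaffold protein of SWI/SNF complexes, which use ATP to move and evict nucleosomes at promoters and enhancers. NFIC is a nuclear factor I protein that binds a palindrome of TTGGC and GCCAA and is abundant in liver. SATB1 organises chromatin at AT-rich DNA and is best known from T cells. Dense groups of such peaks are often seen around genes with many enhancers. Of the 7 genes, 4 act in gene regulation. ZFP36L2 is a zinc-finger protein that binds AU-rich elements of messenger RNAs and promotes their decay, HLF is a bZIP transcription factor with a role in liver and in circadian gene expression, IRF2BP2 is a transcriptional corepressor, and MIDN (midnolin) carries nuclear proteins to the proteasome. The other 3 act at the membrane. TM4SF1 is a multi-pass surface protein of many carcinomas, FZD5 is a Frizzled receptor for Wnt ligands, and SNTB1 is a syntrophin, an adaptor of the dystrophin complex.

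All 7 genes had an SMRC1 peak within 1 kb of the gene start, and they differed in what else was called there. The share of all gene starts with such peaks was not counted, so no count here can be called high or low. Gene positions are known here only to the kb (hg19). The start carried peaks of all 3 libraries at ZFP36L2, IRF2BP2 and MIDN, of SMRC1 and NFIC at TM4SF1, and of SMRC1 alone at HLF, FZD5 and SNTB1. To show the DNA at these starts, the sequences from 250 bases before to 20 bases after the start are given for the 5 genes with an entry in the RefSeq promoter table (GRCh38.p14). ZFP36L2 and SNTB1 had no entry. Where the table lists more than 1 start, the first is shown. The first 3 genes had an NFIC peak at the start and the last 2 had none. Capitals mark matches on either strand to TTGGC (1 arm of the NFI palindrome), TGACGTCA (the cyclic AMP response element), TGANTCA (the AP-1 site) or CCAAT (the CCAAT box). Matches of TTGGC and CCAAT may overlap.
IRF2BP2, chr1:234610159-234610428, minus strand: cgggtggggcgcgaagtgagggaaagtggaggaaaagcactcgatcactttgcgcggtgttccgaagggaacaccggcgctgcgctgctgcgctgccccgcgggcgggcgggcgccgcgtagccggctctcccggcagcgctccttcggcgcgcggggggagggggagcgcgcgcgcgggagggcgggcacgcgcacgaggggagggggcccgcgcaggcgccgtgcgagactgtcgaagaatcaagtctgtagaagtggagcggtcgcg
MIDN, chr19:1248333-1248602, plus strand: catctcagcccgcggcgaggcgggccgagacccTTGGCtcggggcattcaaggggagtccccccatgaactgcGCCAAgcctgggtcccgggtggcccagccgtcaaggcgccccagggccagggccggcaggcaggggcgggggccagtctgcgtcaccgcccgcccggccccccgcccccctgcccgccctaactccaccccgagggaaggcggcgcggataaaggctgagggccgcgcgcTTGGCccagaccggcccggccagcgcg
TM4SF1, chr3:149377630-149377899, minus strand: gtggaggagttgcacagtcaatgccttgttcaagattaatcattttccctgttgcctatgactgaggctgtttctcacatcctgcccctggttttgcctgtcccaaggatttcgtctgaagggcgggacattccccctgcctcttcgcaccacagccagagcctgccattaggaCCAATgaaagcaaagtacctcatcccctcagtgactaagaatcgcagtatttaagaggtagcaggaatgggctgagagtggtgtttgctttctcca
HLF, chr17:55264710-55264979, plus strand: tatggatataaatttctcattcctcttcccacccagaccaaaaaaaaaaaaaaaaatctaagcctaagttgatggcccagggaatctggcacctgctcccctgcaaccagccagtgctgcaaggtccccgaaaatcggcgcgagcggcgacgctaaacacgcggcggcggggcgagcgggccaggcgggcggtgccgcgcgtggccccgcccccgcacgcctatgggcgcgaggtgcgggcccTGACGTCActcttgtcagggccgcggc
FZD5, chr2:207769887-207770156, minus strand: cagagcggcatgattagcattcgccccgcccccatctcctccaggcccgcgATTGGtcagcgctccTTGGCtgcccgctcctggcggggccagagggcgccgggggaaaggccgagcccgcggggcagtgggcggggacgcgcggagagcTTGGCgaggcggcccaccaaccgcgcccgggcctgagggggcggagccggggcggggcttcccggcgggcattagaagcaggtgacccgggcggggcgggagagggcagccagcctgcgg

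The start windows of MIDN and FZD5 held 3 and 2 matches to TTGGC, and those of IRF2BP2, TM4SF1 and HLF held 0. The motif was present in the window of FZD5, where no NFIC peak was called within 1 kb of the start. It was absent from the windows of IRF2BP2 and TM4SF1, where NFIC was called within 1 kb. The windows are shorter than that span, so motif and peak cannot be matched here. Of all 35116 promoters in the table, 42.9% held TTGGC in a window of this length. The whole palindrome, TTGGC and GCCAA with 5 bases between them, matched at 0 of the 5 windows and in 0.0285% of all promoters. HLF held the only match to TGACGTCA, which began 7 bases before the start, and 1.83% of all promoters held it. CCAAT matched once at TM4SF1 and once at FZD5, against 33.1% of all promoters, and TGANTCA at none of the 5, against 7.12%. G and C made up 77.4% of the MIDN window, 76.7% at FZD5, 73.7% at IRF2BP2, 63.0% at HLF and 50.4% at TM4SF1, and the median over all promoters was 58.1%. The motifs were chosen after these sequences had been seen. Peaks are in hg19 and the sequences in GRCh38, so a motif was not placed within a peak.

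The highest fold at a start was that of IRF2BP2. Its SMRC1 peak at chr1:234745771-234749953 had a fold of 10.8 over local background, the authors' deposited value, and 138 reads at its summit 2.1 kb upstream. A second SMRC1 peak lay in the gene (fold 3.99, 45 reads). The NFIC peaks within 1 kb were weak, with folds of 3.20 and 2.28, and the highest-ranked NFIC peak of the locus lay 2.5 kb upstream under the same SMRC1 peak (fold 6.69, 100 reads). The SATB1 peak at the start had a fold of 2.73 and 40 reads.

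At MIDN the SATB1 peak stood higher in its list than the NFIC peak. SMRC1 had a fold of 7.98 (102 reads, chr19:1248185-1249943), SATB1 a fold of 5.64 (49 reads) and NFIC a fold of 2.65 (39 reads). The SATB1 peak was number 87 of 3296 by −log10 q, whereas the NFIC peak was number 11541 of 13643. The ZFP36L2 start had an SMRC1 peak of fold 5.71 (176 reads, chr2:43452777-43455441), NFIC peaks of folds 2.84 and 2.75, and SATB1 peaks of folds 3.24 and 3.02. The control background there was 23.1 fragments in the SMRC1 list, against a list median of 8, and the deposited fold has this background in its denominator.

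The remaining starts had SMRC1 with 1 NFIC peak or SMRC1 alone. TM4SF1 had an SMRC1 peak of fold 4.97 (69 reads, chr3:149094268-149096128) and an NFIC peak of fold 3.88 (39 reads). FZD5 had 109 SMRC1 reads (fold 5.04, chr2:208633815-208635239) and HLF 61 (fold 4.4, chr17:53342104-53344070). SNTB1 had 58 SMRC1 reads at its start (fold 4.88). Over the 7 genes the SMRC1 signal at the start was thus between 58 and 176 reads at the stronger peak. The start had the highest-ranked SMRC1 peak of the locus at ZFP36L2, IRF2BP2 and MIDN, the 3 genes whose start carried all 3 libraries, and a lower-ranked one at HLF, TM4SF1, FZD5 and SNTB1.

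**Figure D1:**
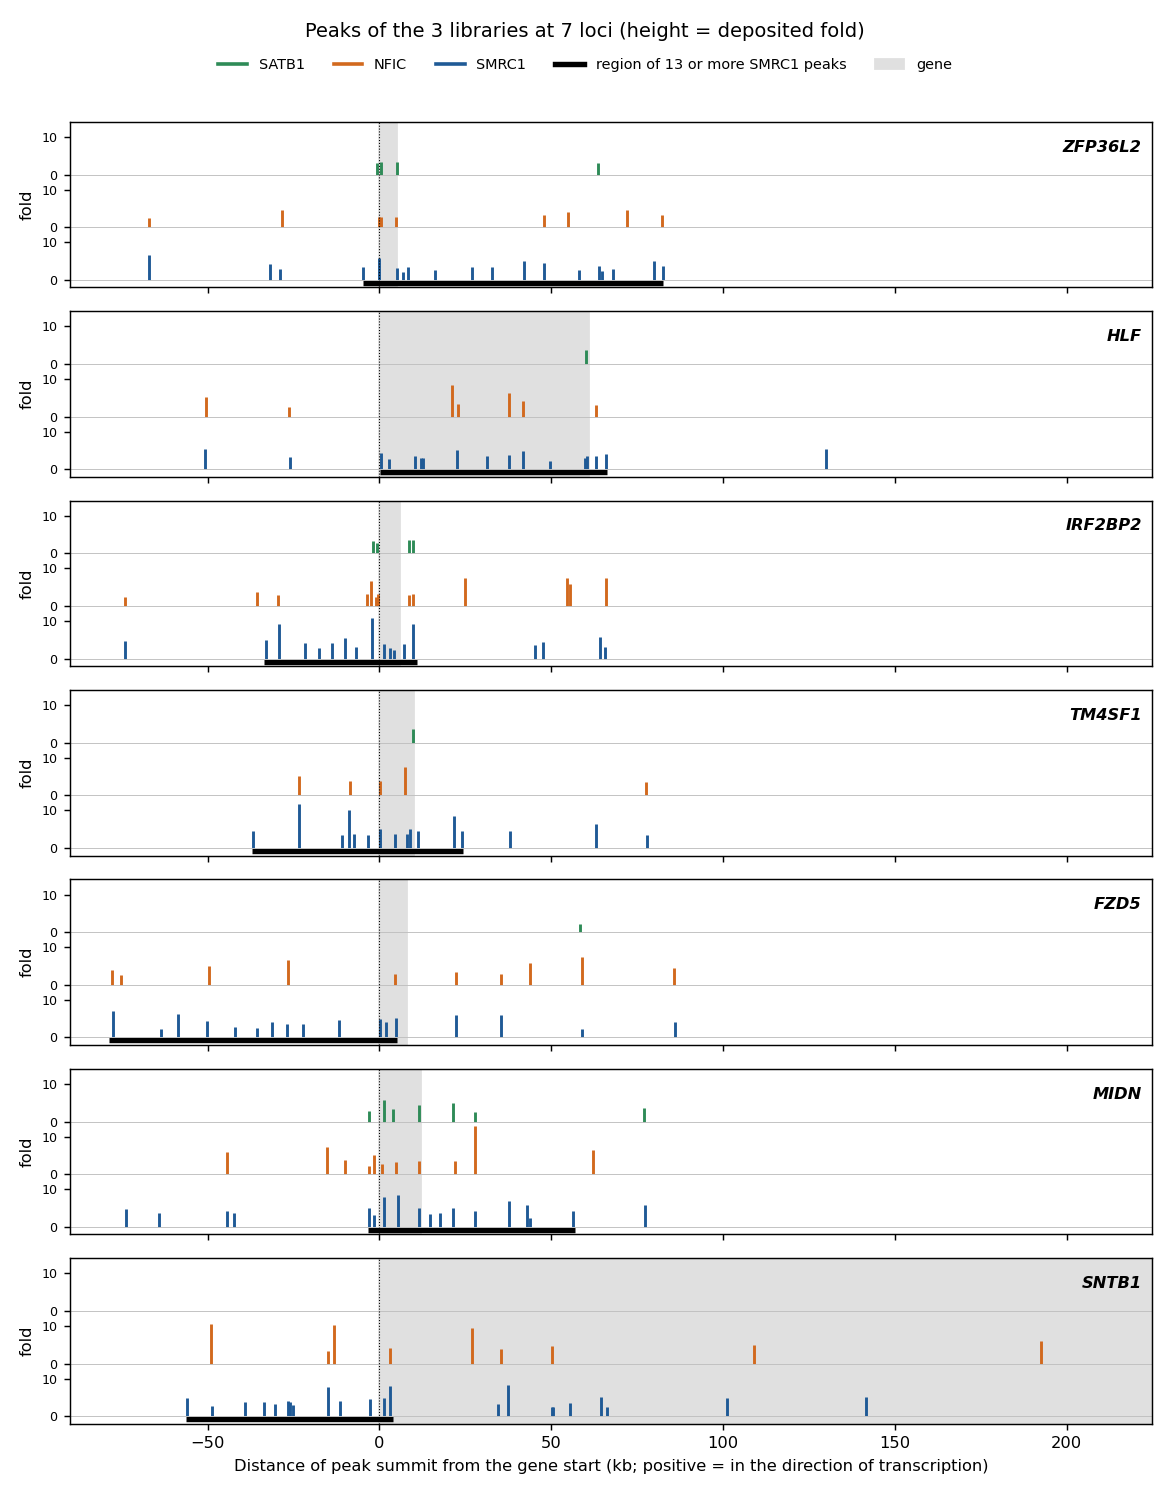
Peaks at the 7 loci by distance of the summit from the gene start in kb, with the direction of transcription to the right. In each panel the 3 lanes are SMRC1, NFIC and SATB1, the height of a line is the deposited fold, the black bar is the joined region of 13 or more SMRC1 peaks and grey is the gene, which runs past the right edge for SNTB1. The region lies mainly past the end of ZFP36L2, along the gene body of HLF, and before the start of FZD5 and SNTB1.

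The dense regions were placed differently around each gene. At ZFP36L2 the region (chr2:43371394-43458914, 16 SMRC1 peaks in 87.5 kb) ran from just before the gene to beyond its end, and 14 of the 19 peaks of the locus lay downstream. THADA, which neighbours ZFP36L2 in RefSeq, is the other protein-coding gene within 80 kb. At HLF the region (chr17:53342104-53408239, 14 peaks in 66.1 kb) spanned the gene, with 12 of 17 summits inside it. The FZD5 region (chr2:208630007-208713710, 13 peaks in 83.7 kb) extended upstream, where 10 of 17 summits lay. The SNTB1 region (chr8:121820928-121881288, 13 peaks in 60.4 kb) likewise began near the start of the gene and ran upstream, and 11 of the 22 peaks of that locus lay inside the long gene.

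The other regions surrounded their gene. IRF2BP2 (chr1:234735024-234779509) packed 13 SMRC1 peaks into 44.5 kb, the shortest of the 7, and peaks covered 45.3% of it, compared with 16.5% to 25.2% of the others. It was also the locus with 0 other protein-coding genes within 80 kb. The TM4SF1 region (chr3:149071600-149133223, 13 peaks in 61.6 kb) had 6 summits of the locus upstream, 4 in the gene and 6 downstream. The MIDN region (chr19:1244603-1304826, 13 peaks in 60.2 kb) stood in a gene-dense stretch with 7 other protein-coding genes within 80 kb, among them STK11 and CIRBP. Other protein-coding genes within 80 kb were STXBP4 and MMD at HLF, CCNYL1 and PLEKHM3 at FZD5, TM4SF18 at TM4SF1 and MTBP at SNTB1. Peaks were not assigned to 1 gene at any locus. A locus bears the name of its member gene only, and its peaks may belong to a neighbour. Over the 7 loci, 49 SMRC1 summits lay upstream of the gene, 36 inside and 42 downstream.

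The threshold of 13 peaks separates regions that are nearly alike. In all, 9 regions reached it, 7 of them at these genes; the others lay on chromosome 6 at 47062063 to 47169303 (15 peaks) and on chromosome 16 at 81544912 to 81626292 (13 peaks). Just below it were 3 regions of 12 peaks, on chromosome 2 at 11482582 to 11530392 and on chromosome 3 at 58154285 to 58208518 and 193807245 to 193859951. Neighbouring peaks of the 7 regions were a median of 2.88 kb apart, against 22.7 kb in the whole list. With a joining distance of 10 kb, only HLF (14 peaks), IRF2BP2 (13) and SNTB1 (13) still reached 13, and ZFP36L2 fell to 8.

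The SMRC1 peaks at these loci had the fold of the rest of the list, while their −log10 q was higher (median 10.7 against 8.74). The median fold of the 127 peaks was 4.07 (exact interval of the median 3.74 to 4.42), and that of the rest of the list 4.08. By −log10 q the highest rank was 119, held by the TM4SF1 peak at chr3:149118396-149120129, 23.5 kb upstream, with a fold of 11.7 and 194 reads. FZD5 followed with rank 294 for the peak 35.3 kb downstream (fold 6.0, 246 reads). IRF2BP2 led with rank 408 at its start, ZFP36L2 with 884 at its start, MIDN with 1535 at its start, SNTB1 with 1134 and HLF with 1307.

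The range within a locus was wide, as the plot of folds shows. ZFP36L2 had SMRC1 folds from 2.19 to 6.57 with a median of 3.45, the lowest of the 7 medians. HLF ranged from 2.28 to 5.40 (median 3.56), SNTB1 from 2.35 to 8.28 (3.90) and IRF2BP2 from 2.41 to 10.8 (4.10). FZD5 ranged from 2.22 to 6.94 (4.17), MIDN from 2.39 to 8.41 (4.5) and TM4SF1 from 3.36 to 11.7 (4.52). The 7 ranges overlap, so the loci cannot be ordered by the fold of a single peak. TM4SF1 alone among them had no peak below 3.

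**Figure D2:**
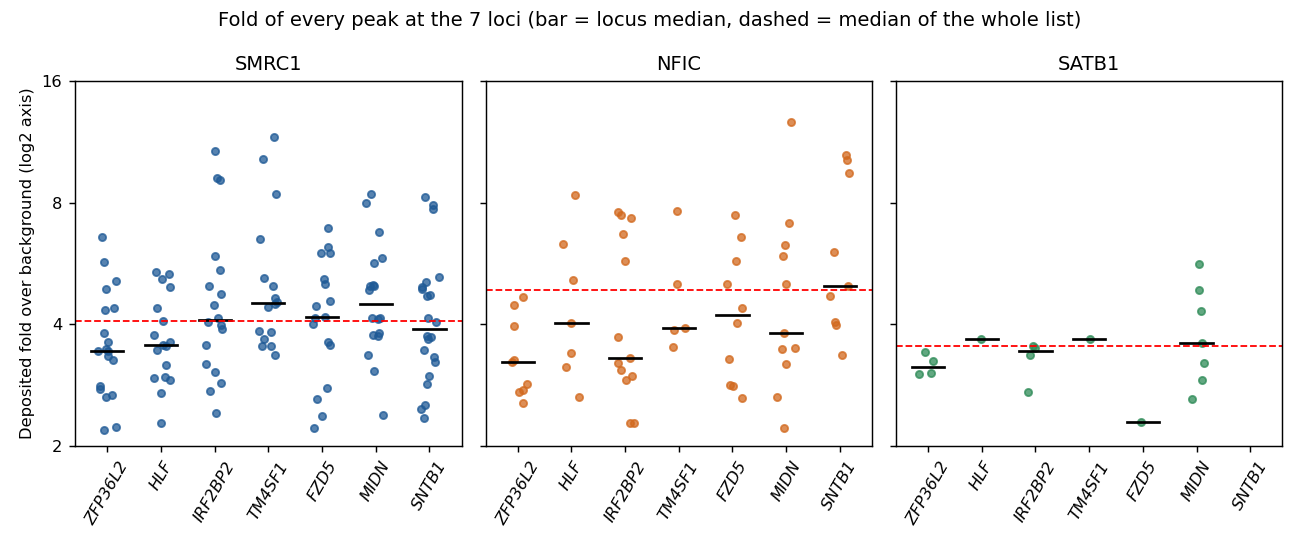
Deposited fold over local background (log2 axis) of every peak at the 7 loci, 1 panel per library, with 1 point per peak. Black bars are locus medians and the dashed line is the median of the whole list. SMRC1 medians lie on both sides of the list median, and NFIC medians lie below it at all loci except SNTB1.

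Reads and background were both higher at these loci than in the rest of the list, though near those of other large regions. The median SMRC1 summit held 56 reads, against 45 in the rest of the list, over a background of 10 control fragments against 8. SMRC1 peaks whose −log10 q reached 10 numbered 69 of 127 (54.3%, interval 45.3 to 63.2), where the whole list had 43.7%. In regions of 9 to 12 SMRC1 peaks the medians were 53.5 reads and 10 control fragments, and 52.4% of peaks reached this bound. The median background was highest at ZFP36L2 and FZD5 (13 each), both on chromosome 2, and lowest at SNTB1 (7.71) and TM4SF1 (7.74). The part of this background in the folds was not tested. Wide peaks, over 2 kb, numbered 11 of 127, against 1.15% of the list. Of these 11, 7 overlapped an NFIC peak (63.6%) and 5 a SATB1 peak (45.5%), where the wide peaks of the list did so in 72.2% and 31.9% of cases. The part of peak width in the shares given below was not tested. The widest were 4336 bp in HLF, 4183 bp at the IRF2BP2 start and 4113 bp 77.6 kb upstream of FZD5.

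NFIC, which the choice of the genes did not use, had peaks at every locus. IRF2BP2 had 13, MIDN 11, FZD5 10, ZFP36L2 and SNTB1 9 each, HLF 7 and TM4SF1 5. The windows differ in length, from 165 to 172 kb at 5 genes to 221 kb at HLF and 438 kb at SNTB1. Per Mb, NFIC peaks ranged from 20.5 at SNTB1 and 29.4 at TM4SF1 to 78.3 at IRF2BP2. The count of TM4SF1, 5 in 170 kb, was reached in 5.1% of genome bins of that length that hold an SMRC1 peak, and SNTB1 was less dense than that. There were 0.504 NFIC peaks per SMRC1 peak at the loci and 0.463 in the whole lists. The loci were chosen on SMRC1 peak density, so this ratio depends on the choice and cannot be called high or low. By locus the ratio was highest at IRF2BP2 (0.722) and lowest at TM4SF1 (0.312). Bins with as many SMRC1 peaks as these loci (16 or more, 24 bins, which may include the loci themselves) held 2 to 12 NFIC peaks with a median of 7.

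**Figure D3:**
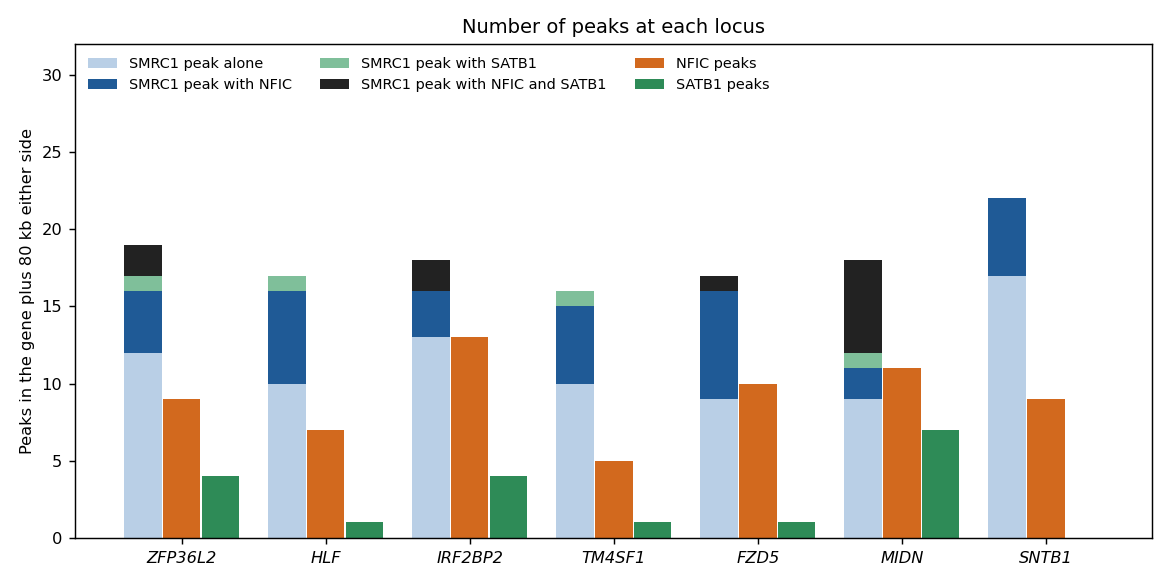
Number of peaks at each locus. The stacked bar divides SMRC1 peaks by whether an NFIC peak, a SATB1 peak, both or neither shares at least 1 bp, and the other bars count NFIC and SATB1 peaks. NFIC peaks number 5 to 13 at every locus, while SATB1 peaks number 7 at MIDN and 0 at SNTB1.

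The leading NFIC peaks stood at sites of uneven SMRC1 strength. The strongest lay at MIDN, 27.8 kb downstream of the start at chr19:1275406-1276284, with a fold of 12.7, 216 reads and rank 57. The SMRC1 peak over it had a fold of 4.14 and 100 reads. At FZD5 the leading NFIC peak (chr2:208575636-208576418, 58.9 kb downstream, rank 230, fold 7.47, 187 reads) lay on an SMRC1 peak of fold 2.37, number 20229 of the SMRC1 list. At HLF it lay within the gene, 21.2 kb from the start at chr17:53362740-53363766 (rank 276, fold 8.34, 160 reads), inside the highest-ranked SMRC1 peak of that locus (fold 5.20, 166 reads).

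SNTB1 and the remaining genes repeated this range. The leading NFIC peak of SNTB1, 48.9 kb upstream (fold 10.5, 94 reads, rank 573), overlapped an SMRC1 peak of fold 2.84, and the next, 13.3 kb upstream (fold 10.2, 81 reads), overlapped none. Conversely, the SMRC1 peak of rank 119 upstream of TM4SF1 carried an NFIC peak of fold 5.04 and rank 2533. The leading NFIC peak of TM4SF1 lay in the gene (fold 7.61, 68 reads) on an SMRC1 peak of fold 3.84. ZFP36L2 had no NFIC site of high rank or fold: its highest rank was 5320, with a fold of 3.97, and its 9 folds ran from 2.55 to 4.68. Its NFIC peaks had a median of 51 reads over 15.1 control fragments, against 32 and 6 in the whole NFIC list. The part of this background in the ranks and folds was not tested. The median NFIC fold was 3.98 at the loci and 4.88 in the rest of the list, over a background of 11 control fragments against 6.

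SMRC1 peaks at the loci shared a site with NFIC in 43 of 127 cases (33.9%, interval 25.7 to 42.8), where the whole SMRC1 list had 23.7%. By locus the count was 8 of 17 at FZD5, 8 of 18 at MIDN, 6 of 17 at HLF, 6 of 19 at ZFP36L2, 5 of 16 at TM4SF1, 5 of 18 at IRF2BP2 and 5 of 22 at SNTB1. The share was 30.5% within the joined regions (29 of 95) and 43.8% outside them (14 of 32). With only peaks that reached a −log10 q of 10 kept in both lists, the share was 18.8% at the loci (13 of 69) and 18.8% in the SMRC1 list. SMRC1 peaks below that bound had any NFIC peak in 22.4% of cases at the loci (13 of 58) and 12.8% in the list, and those above it in 43.5% (30 of 69) and 37.7%. Peaks at 1 locus share their surroundings and are not replicates, and the difference was not tested.

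Seen from NFIC, 49 of 64 peaks lay on an SMRC1 peak (76.6%, interval 64.3 to 86.2), where the full NFIC list had 51.9%. This share is not independent of the choice of the loci, which was made on SMRC1 density. All 7 NFIC peaks at HLF and all 5 at TM4SF1 were on SMRC1 peaks, against 4 of 9 at SNTB1. Where the peaks overlapped, the nearest summits were a median of 112 bp apart.

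**Figure D4:**
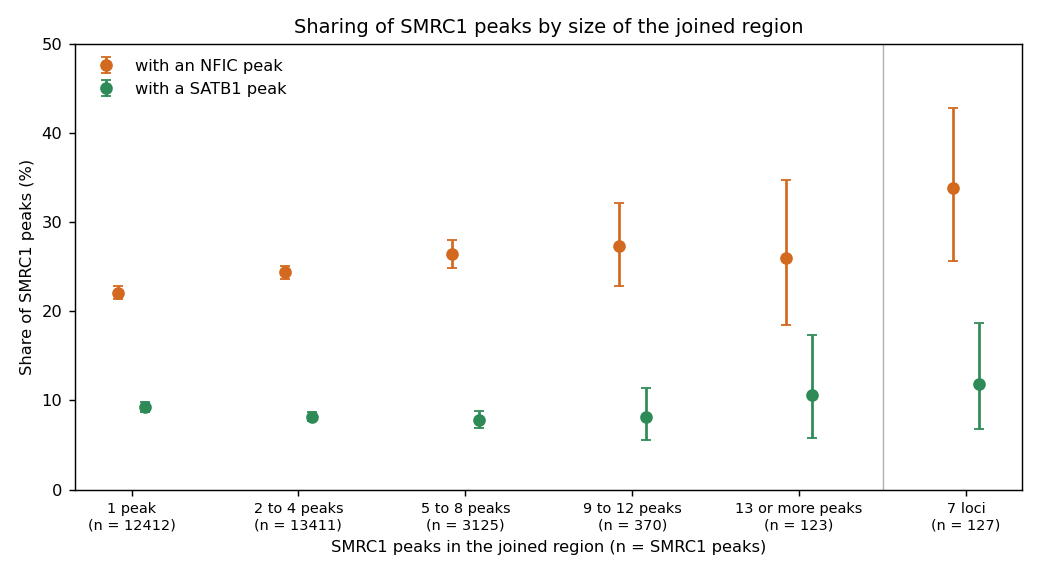
Share of SMRC1 peaks (%) that overlap an NFIC or a SATB1 peak, by the number of SMRC1 peaks in the joined region, with the 7 loci at the right. Bars are exact 95% intervals. The NFIC share goes from 22.1% in lone peaks to 27.3% in regions of 9 to 12 peaks, and the SATB1 share stays between 7.78% and 10.6%.

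Across the SMRC1 list the NFIC share differed by a few percentage points between region sizes. An NFIC peak overlapped 22.1% of lone SMRC1 peaks (interval 21.4 to 22.8), 24.4% of those in regions of 2 to 4, 26.4% in regions of 5 to 8, 27.3% in regions of 9 to 12 and 32 of 123 (18.5% to 34.7%) in regions of 13 or more. The last class includes the regions on chromosomes 6 and 16, where 3 of 15 and 0 of 13 SMRC1 peaks had an NFIC peak. The median fold was 4.19 for lone peaks and 3.99 in the largest class. For SATB1 the shares were 9.27% in lone peaks and 10.6% (5.75 to 17.4) in the largest class.

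SATB1 peaks were unevenly spread over the loci. MIDN had 7 of the 18 SATB1 peaks, ZFP36L2 and IRF2BP2 had 4 each, HLF, TM4SF1 and FZD5 had 1 each, and at SNTB1 0 were called. Of genome bins of 170 kb with an SMRC1 peak, 27.1% held a SATB1 peak. Of the 24 bins with 16 or more SMRC1 peaks only 4 held none, with a median of 2.5 and at most 8 SATB1 peaks. A SATB1 peak at 6 of the 7 loci is near the share among these bins. The bins may include the loci themselves, and the SNTB1 window of 438 kb is longer than a bin, so the comparison is not independent. Per Mb of window, SATB1 peaks numbered 40.7 at MIDN, 24.2 at ZFP36L2, 24.1 at IRF2BP2, 5.95 at FZD5, 5.88 at TM4SF1 and 4.52 at HLF. All 18 SATB1 peaks lay on SMRC1 peaks, where the full SATB1 list had 78.5%, and this share too depends on the choice of the loci by SMRC1 density. From SMRC1, 15 of 127 peaks had a SATB1 peak (11.8%, interval 6.76 to 18.7), against 8.61% of the list, and 8 of 109 (7.34%) without MIDN.

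The SATB1 peaks at these loci were about as strong as the rest of their list, with a median fold of 3.40 against 3.54 (rest of the list). A −log10 q of 10 was reached by 2 of 18 (11.1%, interval 1.38 to 34.7), against 13.9% of the rest. Both lay at MIDN: the peak 21.5 kb downstream of the start (chr19:1269303-1269698, fold 4.88, 66 reads, rank 57) and the peak at the start (fold 5.64, rank 87). The 4 SATB1 peaks at ZFP36L2 had folds of 3.02 to 3.43 and 30 to 55 reads, and the 4 at IRF2BP2 folds of 2.73 to 3.53 and 26 to 40 reads. The single peaks at HLF and TM4SF1 each had a fold of 3.67 and 22 reads, and that at FZD5 a fold of 2.29 and 33 reads. The HLF peak lay near the far end of the gene, as did the TM4SF1 peak, 9.9 kb from the start.

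Sites of all 3 libraries were concentrated at 3 of the genes. Both an NFIC and a SATB1 peak overlapped 11 of the 127 SMRC1 peaks (8.66%, interval 4.4 to 15), against 3.02% of the list. MIDN held 6 of them, ZFP36L2 and IRF2BP2 2 each and FZD5 1. Without MIDN the share was 5 of 109 (4.59%, 1.51 to 10.4), so its size rests on that locus. At MIDN they lay 3.1 kb upstream, at the start, at 2 further sites within the gene, and 21.5 and 27.7 kb from the start, past its end. At ZFP36L2 they marked the 2 ends of the gene: the start, and the gene end 5.0 kb away (SMRC1 fold 3.27, NFIC 2.72, SATB1 3.43). At IRF2BP2 they marked the start and a site 9.7 kb from it, just past the gene (SMRC1 fold 9.22 with 144 reads, NFIC 3.31, SATB1 3.53).

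NFIC and SATB1 peaks also met each other here. A SATB1 peak overlapped 13 of 64 NFIC peaks (20.3%, interval 11.3 to 32.2), against 6.52% of the NFIC list. Without MIDN it was 8 of 53 (15.1%, 6.75 to 27.6). Of the 18 SATB1 peaks, 12 had an NFIC peak (66.7%, 41.0 to 86.7), against 27.4% of the SATB1 list. Without MIDN it was 7 of 11 (63.6%, 30.8 to 89.1). Without MIDN both lower limits are close to the list values. Peaks at 1 locus are not replicates, and neither difference was tested. At 2 sites of all 3 libraries, the FZD5 site and the MIDN site at chr19:1250669-1254038, the NFIC and SATB1 peaks touched the same SMRC1 peak and not each other. NFIC and SATB1 peaks that overlapped each other lay at MIDN, IRF2BP2 and ZFP36L2 only, and 0 were at HLF, TM4SF1, FZD5 or SNTB1.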

How the data were processed

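Per the submitters' processing notes, reads were handled with Bowtie 1.1.2, SAMtools, MACS2 2.1.1 and deepTools on hg19; tool settings and the control were not given in the sources used here. SMRC1 peaks at most 12.5 kb apart were joined. The deposited lists hold, per peak, a score, the authors' fold (a ratio of summit reads to local background), and the −log10 p and −log10 q of the authors' peak caller; 1 list comes from 1 library. The deposited −log10 values and folds were used to rank, filter and describe peaks. Summit reads and control background were derived from fold and p together by the formulas of MACS2, with reads whole within 0.05. The step was tested on simulated data and gave a value for 29440 SMRC1, 13640 NFIC and 3295 SATB1 peaks. The ChIP library was 1.29 times as deep as the control for SMRC1 and 1.01 times for NFIC; total depth is unknown, and SATB1 backgrounds, on a scaled control, are not reported. Peaks overlapped when 1 bp or more was shared. Intervals of shares are exact (Clopper-Pearson, 95%). Genes and windows came from the stated rule, to the kb; strand came from the RefSeq table, and for ZFP36L2 and SNTB1 from textbook knowledge. Neighbouring genes are by RefSeq GRCh38.p14. Members, lists and motifs were chosen with earlier results of these data known. At each gene the peaks named were the highest-ranked peak of each list, those nearest the start and sites of all 3 lists; others named were picked after their values were seen. Software was matplotlib 3.10.9, scipy 1.17.1, pandas 2.3.3 and numpy 2.4.6 under Python 3.11.15.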

Additional observations from a re-analysis of the deposited data

How the results depend on the processing

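Total depth is unknown, and no replicate spread could be given. No paired analysis was possible because each antibody had 1 library. With −log10 q of at least 10, SMRC1 peaks shared with NFIC made up 18.8%, those shared with SATB1 2.90%, NFIC peaks numbered 28, SATB1 peaks 2, the median SMRC1 fold was 4.97, and 0 regions reached 13 peaks, the largest at a member gene having 9 (MIDN). With a fold of at least 4 the values were 16.7%, 4.55%, 31, 3 and 5.01. The whole list then shared 18.2% with NFIC and 3.19% with SATB1. Under the bound on q the whole list shared 2.51% with SATB1. The median SMRC1 fold of the whole list was 5.35 under the bound on q and 5.225 under that on fold, above the loci in both. Within the joined regions alone NFIC peaks numbered 39. Regions of 13 or more numbered 3 when joined within 10 kb and 15 within 15 kb. Leaving out each locus in turn, added after seeing the data, gave 31.8% to 36.2% for NFIC and 7.34% to 14.3% for SATB1, and 11 SATB1 peaks without MIDN. The overlap rules, and flanks of 40 kb, kept both shares within the intervals of the main setting. For SATB1 the main interval (6.76 to 18.7) already included the list value of 8.61%. The intervals treat peaks as independent, which peaks at 1 locus are not, so they do not test a difference from the list. The NFIC share was 26.8% (interval 19.3 to 35.35) with summits at most 250 bp apart, against 20.1% of the list. It was 31.25% (22.2 to 41.5) with flanks of 40 kb and 30.5% (21.5 to 40.8) within the joined regions, against 23.7%. Those intervals include the list value. A rule on the part of the shorter peak that is shared gave 32.3% (24.3 to 41.15), with 22.8% in the list.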

Other observations

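At the 7 loci, 15 of the 64 NFIC peaks lay on no SMRC1 peak, and their median fold was 5.74, against 3.48 for the 49 NFIC peaks on SMRC1 sites. Their summits were 1.04 to 50.8 kb (median 6.97 kb) from the nearest SMRC1 summit, and 3 of them fell inside a joined region. IRF2BP2 had 4, 3 of them downstream, at most 55.4 kb from its start, with folds of 7.46, 7.34 and 5.74 from 25, 18 and 19 reads over backgrounds of 2.46 control fragments or less. SNTB1 had 5, among them the site 13.3 kb upstream (81 reads over 7 control fragments) and a site inside the gene (fold 9.47, 47 reads over 4.04 control fragments). Over all 64 NFIC peaks the median was 44 reads over 11 control fragments. Fold has the background in its denominator, so a higher fold need not mean more reads. The part of the low background in these folds was not tested. The fold of NFIC peaks with and without SMRC1 was not computed over the whole list.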
